A study of Homo sapiens with 6 samples.

Results

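The 38 genes described here encode proteins of homologous recombination, the Fanconi anaemia pathway, mismatch repair and the checkpoint kinases of the DNA damage response. They were listed by name from these pathways, not by their measured values, and all 38 were found among the 21776 genes of the count table. All 38 also passed the filter on low counts, which left 14255 genes for testing. The lowest count of any of them in a library was 160 reads and the highest 7352.

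By its labels the RNA came from SCC25, an established line of oral squamous cell carcinoma cells. The study's legend for the pathways enriched under hypoxia names the line SCC9, so the line is uncertain. The cells were labelled wild type and given no agent other than the change of oxygen. Normoxic cells were kept in air with 5% CO2 at 37 °C, and hypoxic cells spent 12 h in 1% O2 with 5% CO2 and nitrogen. Each condition had 3 libraries, and RNA-seq was the only measurement. Sequencing gave 30186813, 36076088 and 32272716 counted reads for the hypoxic libraries (replicates 1 to 3) and 37278703, 29637189 and 29981208 for the normoxic ones. No label says that the libraries came from separate cultures, so the p-values measure the spread between libraries, which may be technical. All 15 genes of a hypoxia response list were higher in the libraries labelled hypoxic, with a median log2-fold change of 2.71, and EGLN3, an oxygen-sensing prolyl hydroxylase, reached 695 ± 75.0 CPM against 6.77 ± 3.58 CPM (mean ± SD, n = 3 each). CPM are counts scaled to library totals adjusted by TMM, and each fold change sets hypoxia against normoxia.

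Epithelial genes matched the labelled cell type in part. Of 10 squamous epithelial genes, 9 were tested, of which 4 were higher, 4 lower and 1 not called, and the 10 summed to 1721 to 1749 CPM under hypoxia and to 1430 to 1514 CPM in normoxia. CDH1, of adherens junctions, was the most abundant under hypoxia and rose by 1.35, whereas KRT6A fell by 4.12. EPCAM averaged 249 CPM under hypoxia and 317 CPM in normoxia, KRT5 averaged 111 and 126 CPM, and TP63 averaged 68.3 and 62.7 CPM, whereas KRT14, a basal keratin, had 1 read in 1 library and none in the others. Of 8 fibroblast genes, COL1A1 was the most abundant, at 18.0 ± 2.02 CPM under hypoxia and 3.76 ± 1.17 CPM in normoxia, and the 8 summed to 20.6 to 25.3 CPM under hypoxia and to 5.00 to 8.15 CPM in normoxia. COL3A1 had at most 2 reads in a library, and the part of such RNA in the results was not tested. The 6 leukocyte genes in the table summed to 33.8 to 39.9 and 33.1 to 35.9 CPM, nearly all of it CD68, and PTPRC had 2 reads in 1 library. The 5 endothelial genes in the table summed to at most 1.70 CPM in a library, with VWF at 0 in all 3 normoxic libraries.

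Homologous recombination copies the intact sister chromatid to mend a broken one. Nucleases trim the broken ends, BRCA2 loads a recombinase onto the exposed strand, and accessory factors drive the search for a matching sequence. The Fanconi proteins detect and unhook crosslinks between the strands, mismatch repair corrects errors left by DNA polymerases, and ATM and ATR are the kinases that call the cell cycle to a halt. Many of these genes are transcribed under the control of E2F factors, which are active as cells enter S phase, and their mRNA is generally more abundant in proliferating cells.

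Most of the 38 genes had lower mRNA levels under hypoxia. By edgeR's quasi-likelihood test, adjusted over all 14255 genes at 0.05, 30 of 38 fell, whereas 38.5% of all genes tested fell. Only 4 of the 38 rose, whereas 39.2% of all genes tested rose. The 4 that rose were RAD52, RAD50, FANCL and ATM, and the 4 that did not pass the test were RAD51B, FANCF, MSH3 and PMS2. Because 77.8% of all genes tested passed in one direction or the other, a call alone carries little information, and the counts are read here by direction. Their median log2-fold change was -0.73, beside 0.02 over all genes tested. The 3 hypoxic libraries did not overlap the 3 normoxic ones for 35 of the 38 genes, of which 30 were lower and 5 higher, where 80.5% of all genes tested did not overlap, 39.9% lower and 40.6% higher. Summed over the 38 genes, the level was 1049, 1025 and 1024 CPM in the hypoxic libraries and 1637, 1623 and 1593 CPM in the normoxic ones.

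The changes were of moderate size. The log2-fold changes ran from -1.67 for RBBP8 to 0.73 for RAD52. In 9 genes the level fell past a log2-fold change of -1, which 10.5% of all genes tested also did, and none of the 38 rose past 1, which 19.9% of all genes tested did. Where each library had to hold 10 counts or more, 4 genes fell past -1 (RAD51C, XRCC2, RBBP8 and CHEK1), against 9.25% of the genes then tested. In bulk RNA, fewer cells that express a gene and less of its RNA per cell cannot be told apart.

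**Figure D1:**
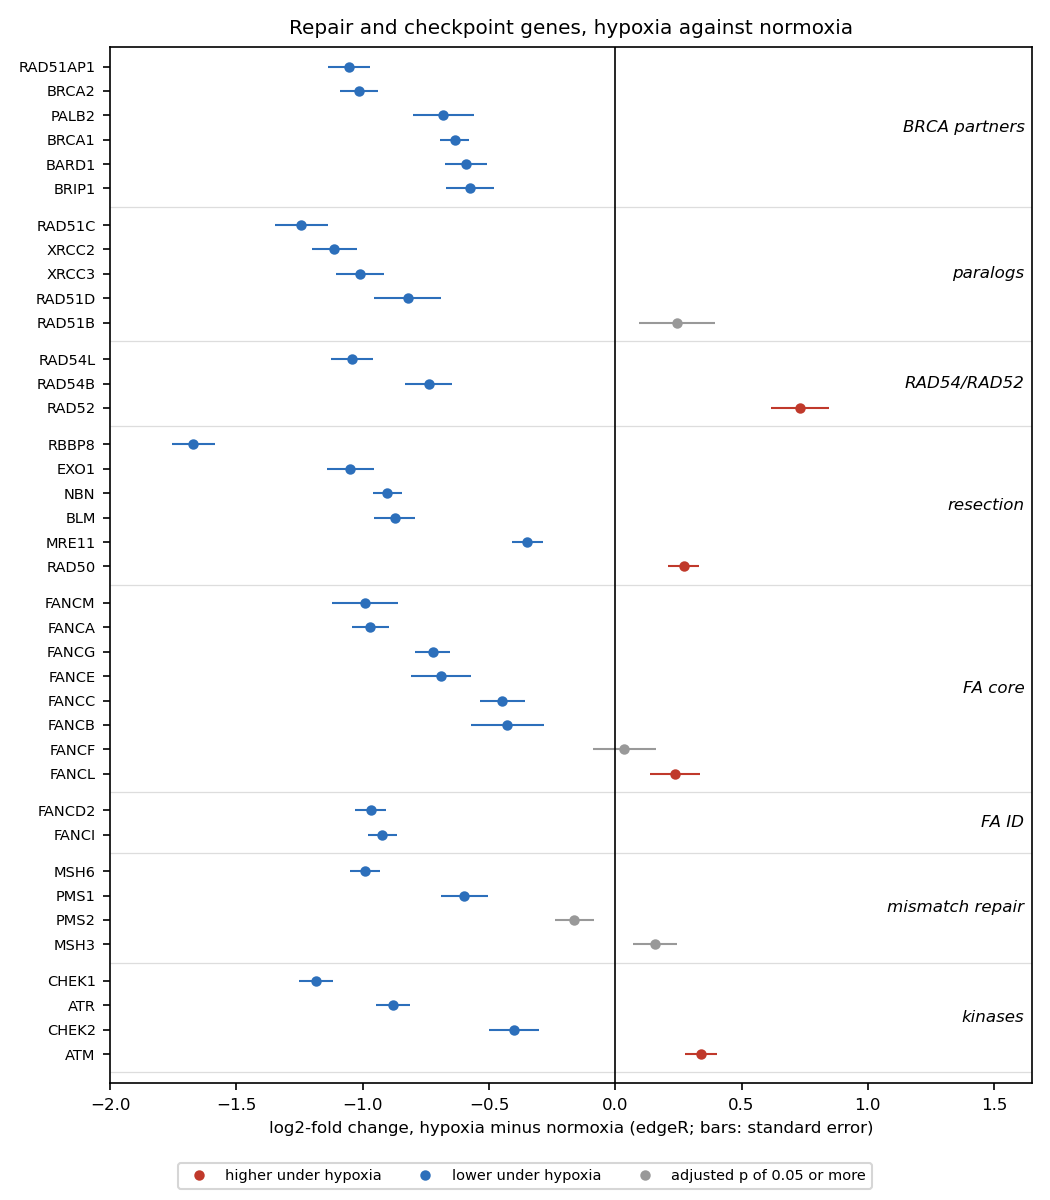
Log2-fold change of each of the 38 genes under hypoxia against normoxia (horizontal axis; points are edgeR estimates and bars their standard errors), grouped by role. Points left of 0 have lower estimates under hypoxia, of which 30 were called lower, and RAD52, RAD50, FANCL and ATM are the 4 called to the right.

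Promoter sequences show which of these genes carry letters that E2F factors are known to bind. RefSeq windows on GRCh38.p14, from 250 bases before to 50 bases after the start of transcription, matched 35 of the 38 genes. TTTCCCGC or TTTGGCGC, read on either strand, occurred in 5 of the 35 windows (14.3%), namely those of XRCC2, FANCC, FANCD2, MSH3 and MSH6. The same letters occurred in 2.31% of all 27303 promoters, in 3.72% of the 11411 promoters of tested genes and in 5.01% of the 4547 promoters of genes that fell. The 30 bases around each match are shown because they place the letters close to the start site in 3 of the 5 genes, with the match in capitals and each sequence on the strand of its gene.
XRCC2, chr7:152676102-152676131, minus strand: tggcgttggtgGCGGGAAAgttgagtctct
FANCC, chr9:95317737-95317766, minus strand: ttcgtcggaatTTTCCCGCgacgccgcggg
FANCD2, chr3:10026424-10026453, plus strand: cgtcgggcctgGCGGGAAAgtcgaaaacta
MSH3, chr5:80654534-80654563, plus strand: gcgcggtcaagTTTGGCGCgaaattgtggc
MSH6, chr2:47783137-47783166, plus strand: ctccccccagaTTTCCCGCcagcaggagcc
In FANCD2 the match ran from position -2 to 6 relative to the start and in MSH6 from 4 to 11, while in XRCC2 it lay at 22 to 29, in FANCC at -46 to -39 and in MSH3 at -107 to -100. XRCC2, FANCC, FANCD2 and MSH6 fell under hypoxia, and MSH3 did not pass the test. A match is a description of the letters and not of binding.

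Other letters were counted in the same way. ACGTG, the core of a hypoxia response element, occurred on either strand in 10 of the 35 windows (28.6%), against 21.6% of all promoters, 26.5% of those of tested genes and 27.7% of those of genes that fell. TTTGAA, part of the cell cycle homology region, occurred in 3 of 35 (8.57%), those of BRIP1, FANCC and ATM, against 15.4%, 9.60% and 11.0% of these 3 sets. The palindrome CACGTG, which contains ACGTG on both strands and was picked after the matches were seen, occurred in 3 of 35 windows (8.57%), against 7.44%, 9.85% and 10.8%. BRCA2 and RAD50 are shown because the same 6 letters lie in the promoter windows of a gene that fell and of a gene that rose.
BRCA2, chr13:32315449-32315476, plus strand: cgtcacggcgtCACGTGgccagcgcggg
RAD50, chr5:132556965-132556992, plus strand: gcctagaggccCACGTGatccgcagggc
The match lay at -48 to -43 in BRCA2 and at -1 to 5 in RAD50. The third window with these letters was that of FANCC, which fell, with the match at 16 to 21.

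BRCA1, BRCA2 and their partners all fell. BRCA1, a ubiquitin ligase that promotes end resection and recruits BRCA2 through PALB2, was at 47.2, 46.1 and 48.6 CPM in the hypoxic libraries and at 76.5, 70.2 and 73.6 CPM in the normoxic ones. The 3 hypoxic libraries lay within a narrow band below all normoxic ones, a log2-fold change of -0.64 (SE 0.058, adjusted p = 2.16e-08 by edgeR). BRCA2, which loads the recombinase onto resected DNA, was at 21.7, 24.3 and 23.5 CPM under hypoxia and at 43.6, 46.6 and 50.3 CPM in normoxia. No library overlapped, and the fitted hypoxic level was 49.5% of the normoxic one, with a log2-fold change of -1.01 (SE 0.075, adjusted p = 1.18e-09 by edgeR).

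RAD51AP1, which binds the recombinase and stimulates strand pairing, changed most among these partners. Its level was 17.1, 15.0 and 14.9 CPM under hypoxia and 33.3, 33.1 and 31.2 CPM in normoxia. The highest hypoxic library was well below the lowest normoxic one, and the log2-fold change was -1.05 (SE 0.082, adjusted p = 2.48e-09 by edgeR). BRIP1, a helicase that binds BRCA1 and is also a Fanconi gene, changed least, at 12.7, 14.0 and 15.7 CPM under hypoxia and 21.7, 21.0 and 20.6 CPM in normoxia. The groups were again apart, with a log2-fold change of -0.57 (SE 0.095, adjusted p = 2.88e-05 by edgeR). PALB2, the bridge between BRCA1 and BRCA2, fell by 0.68 on the log2 scale, and BARD1, the obligate partner of BRCA1 in its ligase, fell by 0.59.

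The paralogs of the recombinase, which form small complexes that stabilise its filament, fell in 4 of 5 cases, beside 38.5% of all genes tested. Their median log2-fold change was -1.01 over the 5. RAD51C, a member of both complexes, was at 9.63, 8.44 and 10.6 CPM under hypoxia and at 23.4, 23.8 and 20.6 CPM in normoxia. No library overlapped, the fitted hypoxic level was 42.2% of the normoxic one, and the log2-fold change was -1.24 (SE 0.11, adjusted p = 7.83e-09 by edgeR). RAD51B, which pairs with RAD51C, was at 9.37, 9.01 and 9.21 CPM under hypoxia and at 9.32, 5.73 and 8.11 CPM in normoxia. Its hypoxic libraries were close together and its normoxic ones spread widely, with normoxia replicate 1 inside the hypoxic range. The log2-fold change of RAD51B was 0.24 (SE 0.15, adjusted p = 0.148 by edgeR), and it was 0.39 without normoxia replicate 1 (adjusted p = 0.0327) and 0.06 without normoxia replicate 2 (adjusted p = 0.675). XRCC2, whose promoter is shown above, fell by 1.11, XRCC3, the partner of RAD51C in the smaller complex, fell by 1.01, and RAD51D, the partner of XRCC2, fell by 0.82.

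The annealing and remodelling factors went in opposite directions. RAD54L, a motor protein that moves the recombinase filament along chromatin, was at 13.9, 12.8 and 13.1 CPM under hypoxia and at 28.2, 26.9 and 26.7 CPM in normoxia. The libraries of each condition were nearly alike, and the log2-fold change was -1.04 (SE 0.084, adjusted p = 3.71e-09 by edgeR). RAD54B, its paralog, fell by 0.74. RAD52, which anneals single strands and can act where BRCA2 is missing, was at 15.5, 14.4 and 12.9 CPM under hypoxia and at 9.51, 7.83 and 8.35 CPM in normoxia. Every hypoxic library of RAD52 was above every normoxic one, at a fitted 166% of the normoxic level, the highest log2-fold change of the 38 genes at 0.73 (SE 0.12, adjusted p = 1.78e-05 by edgeR).

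The genes of end resection held the strongest fall. RBBP8 encodes CtIP, which starts resection together with the nuclease MRE11, and was at 12.1, 11.0 and 10.9 CPM under hypoxia and at 35.6, 33.7 and 38.7 CPM in normoxia. The hypoxic libraries lay at a fitted 31.4% of the normoxic level with little spread, a log2-fold change of -1.67 (SE 0.087, adjusted p = 1.27e-11 by edgeR). EXO1, the nuclease that extends the resected tract and also cuts in mismatch repair, fell by 1.05, and BLM, a helicase that works with DNA2 and dissolves recombination intermediates, fell by 0.87.

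The 3 subunits of the MRN complex, which holds broken ends and activates ATM, did not move together. RAD50, its long coiled-coil subunit, was at 108, 117 and 104 CPM under hypoxia and at 85.1, 90.8 and 96.1 CPM in normoxia. The conditions were adjacent but did not overlap, and RAD50 rose by a log2-fold change of 0.27 (SE 0.062, adjusted p = 0.000674 by edgeR). MRE11, the nuclease subunit, fell by 0.35, and NBN, the subunit that contacts ATM, fell by 0.90 on the log2 scale to a fitted 53.5% of its normoxic level.

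**Figure D2:**
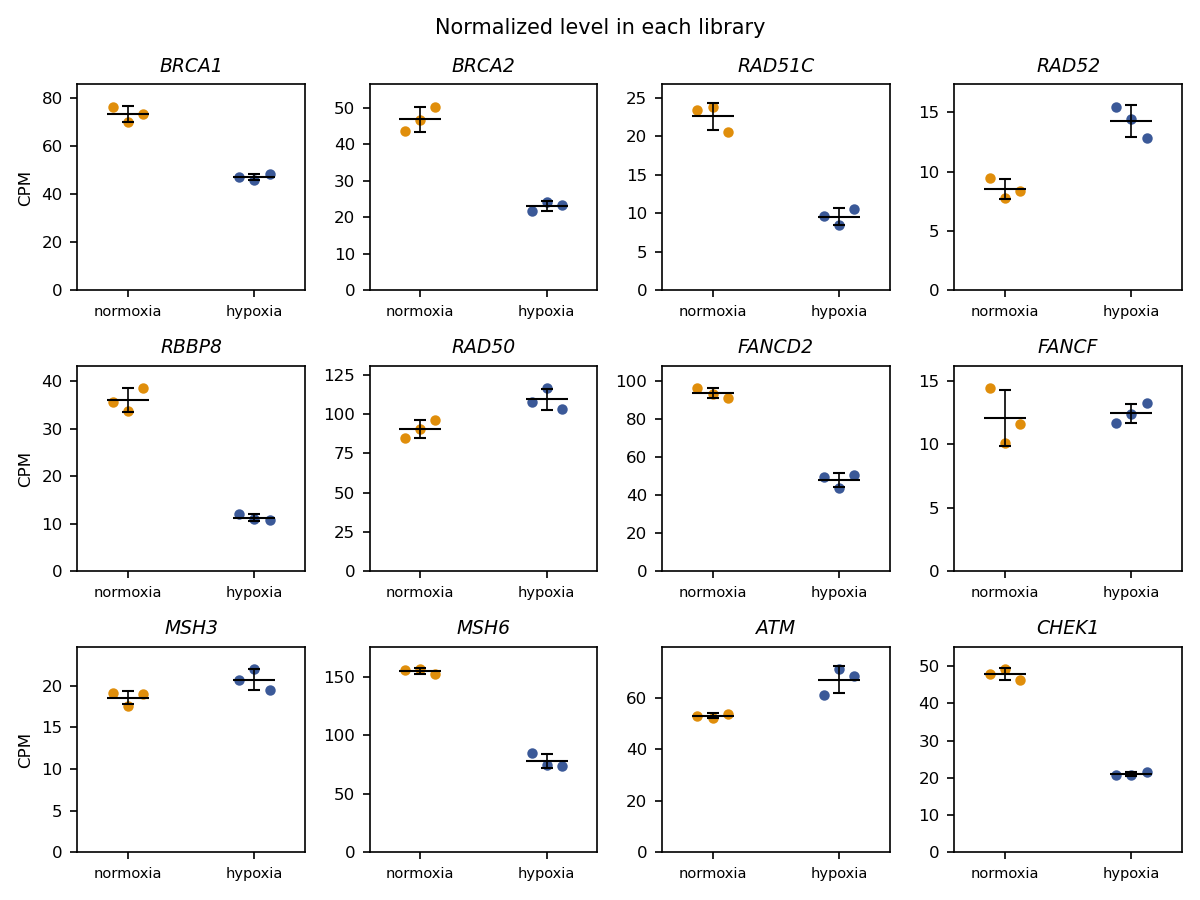
Normalized level (CPM, vertical axes starting at 0) of 12 of the genes in each library, by condition; bars are the mean and SD of 3 libraries. RAD52, RAD50, ATM and MSH3 lie higher under hypoxia without overlap, FANCF overlaps, and BRCA1, BRCA2, RAD51C, RBBP8, FANCD2, MSH6 and CHEK1 lie lower.

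Of the 8 genes of the Fanconi core complex and its anchor, 6 fell, 1 rose and 1 did not pass, with a median log2-fold change of -0.57. Over all genes tested 38.5% fell. FANCM, the translocase that brings the core complex to stalled forks, was at 5.50, 6.94 and 5.15 CPM under hypoxia and at 11.6, 11.8 and 11.6 CPM in normoxia. The normoxic libraries were almost identical and the hypoxic ones well below them, with a log2-fold change of -0.99 (SE 0.13, adjusted p = 2.14e-06 by edgeR). FANCF, an adaptor inside the complex and a gene of a single exon, was at 11.7, 12.3 and 13.2 CPM under hypoxia and at 14.5, 10.1 and 11.6 CPM in normoxia. The hypoxic libraries fell inside the normoxic range, and the log2-fold change was 0.04 (SE 0.12, adjusted p = 0.799 by edgeR).

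FANCA and FANCG, which sit together in the complex, fell by 0.97 and 0.72. FANCE, which touches FANCD2, fell by 0.69, FANCC, its partner, fell by 0.45, and FANCB, part of the catalytic module, fell by 0.43 (adjusted p = 0.0121 by edgeR). FANCL, the ubiquitin ligase of the complex, was at 16.0, 16.9 and 16.5 CPM under hypoxia and at 15.7, 12.7 and 13.6 CPM in normoxia. All hypoxic libraries were above the normoxic ones, by a small margin over normoxia replicate 1. Its log2-fold change of 0.24 (adjusted p = 0.0406 by edgeR) lost the call without a filter on low counts (0.19, adjusted p = 0.112) and when any library other than normoxia replicate 1 was left out, at 0.16 to 0.25 with adjusted p from 0.0632 to 0.184.

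FANCD2 and FANCI, the clamp that the core complex ubiquitinates, fell side by side. FANCD2 was at 49.5, 43.6 and 50.5 CPM under hypoxia and at 96.3, 93.2 and 91.0 CPM in normoxia, and FANCI was at 107, 94.6 and 103 CPM and at 198, 195 and 185 CPM. In both genes hypoxia replicate 2 was the lowest library and normoxia replicate 1 the highest. The log2-fold changes were -0.97 (SE 0.063, adjusted p = 2.31e-10 by edgeR) for FANCD2 and -0.92 (SE 0.058, adjusted p = 1.35e-10 by edgeR) for FANCI.

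Among the 4 mismatch repair genes, 2 fell and 2 did not pass the test, with a median log2-fold change of -0.38. The share that fell, 50%, is near the 38.5% of all genes tested. MSH6, the partner in the complex that recognises single mismatched bases, was at 84.8, 75.1 and 74.2 CPM under hypoxia and at 156, 157 and 152 CPM in normoxia. The fitted hypoxic level was 50.3% of the normoxic one and no library overlapped, with a log2-fold change of -0.99 (SE 0.059, adjusted p = 7.04e-11 by edgeR). MSH3, which takes the place of MSH6 in the complex for larger loops, was at 20.7, 22.0 and 19.4 CPM under hypoxia and at 19.1, 17.6 and 19.0 CPM in normoxia. The conditions were adjacent without overlap, yet the log2-fold change of 0.16 (SE 0.087, adjusted p = 0.104 by edgeR) did not pass. MSH3 passed only where at least 10 counts were required in every library, at 0.24 with an adjusted p of 0.0207 by edgeR, and in limma on log2(FPKM + 1) or log2(FPKM + 0.1) with a filter, at adjusted p of 0.0492 and 0.0493. PMS1, a subunit of a minor MutL complex, fell by 0.60. PMS2, the endonuclease subunit of the main MutL complex, had a log2-fold change of -0.16 (adjusted p = 0.0642 by edgeR). PMS2 passed at -0.20 without a filter on low counts (adjusted p = 0.0132), at -0.25 without normoxia replicate 2 (adjusted p = 0.0057) and at -0.17 without normoxia replicate 3 (adjusted p = 0.0424), and was at -0.10 without normoxia replicate 1 and at -0.09 where each library had to hold 10 counts or more. PMS2 has near-identical pseudogene copies, so its counts are uncertain.

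The checkpoint kinases split between ATM and the other 3. ATM, which answers to double-strand breaks, was at 61.1, 71.2 and 68.3 CPM under hypoxia and at 52.9, 52.0 and 53.8 CPM in normoxia. Normoxic libraries were tightly grouped and hypoxic ones higher and more spread, with a log2-fold change of 0.34 (SE 0.064, adjusted p = 0.000115 by edgeR). ATR, which answers to single-stranded DNA at stalled forks, was at 44.7, 43.9 and 39.0 CPM under hypoxia and at 73.5, 83.1 and 78.6 CPM in normoxia. ATR thus lay far below its normoxic range, with a log2-fold change of -0.88 (SE 0.067, adjusted p = 1.83e-09 by edgeR).

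CHEK1, the kinase downstream of ATR, was at 20.9, 20.7 and 21.5 CPM under hypoxia and at 47.9, 49.4 and 46.2 CPM in normoxia. Its spread within a condition was small beside the difference, a log2-fold change of -1.18 (SE 0.067, adjusted p = 3.97e-11 by edgeR). CHEK2, the kinase downstream of ATM, was at 13.0, 11.5 and 13.9 CPM under hypoxia and at 17.2, 16.9 and 16.5 CPM in normoxia. The fall was smaller and the groups still apart, with a log2-fold change of -0.40 (SE 0.098, adjusted p = 0.00134 by edgeR).

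The balance between partners was read from 10 pairs as the ratio of the genes in each library, tested by a two-sided exact permutation test, which cannot go below 0.1 with 3 libraries against 3. The pairs were listed with the single-gene results known. In 7 pairs the conditions did not overlap and p was 0.1, or 0.143 adjusted over the 10 pairs, so none could pass 0.05. Of all single genes tested 80.5% did not overlap, and the share for gene pairs in general was not measured. The FPKM ratio of ATM to ATR (FPKM are counts divided by gene length and by the library's total) was 0.730, 0.866 and 0.934 under hypoxia and 0.384, 0.334 and 0.366 in normoxia, a difference of 1.22 on the log2 scale. The ratio of MSH3 to MSH6 was 0.263, 0.315 and 0.281 under hypoxia and 0.132, 0.120 and 0.134 in normoxia, a difference of 1.15. In both pairs the gene that was scarcer in normoxia came closer to its partner in all 3 hypoxic libraries.

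CHEK1 exceeded CHEK2 in normoxia, at FPKM ratios of 1.60, 1.67 and 1.60, and the pair was near parity under hypoxia, at 0.920, 1.03 and 0.891. The ratio of RAD50 to MRE11 averaged 2.56 ± 0.18 under hypoxia and 1.67 ± 0.036 in normoxia (SD, n = 3 each). Smaller differences without overlap were -0.45 on the log2 scale for PMS1 against PMS2, -0.30 for RAD54L against RAD54B and -0.23 for RAD51C against XRCC3. Taken on FPKM + 1, the first of these was -0.30 and the last -0.10. The 3 remaining pairs had overlapping libraries. BRCA1 against BARD1 differed by -0.04 (exact permutation p = 0.4), FANCD2 against FANCI by -0.05 (exact permutation p = 0.3) and BRCA2 against PALB2 by -0.34 (exact permutation p = 0.2). The last of these was -0.18 without normoxia replicate 3 and -0.44 without normoxia replicate 2.

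**Figure D3:**
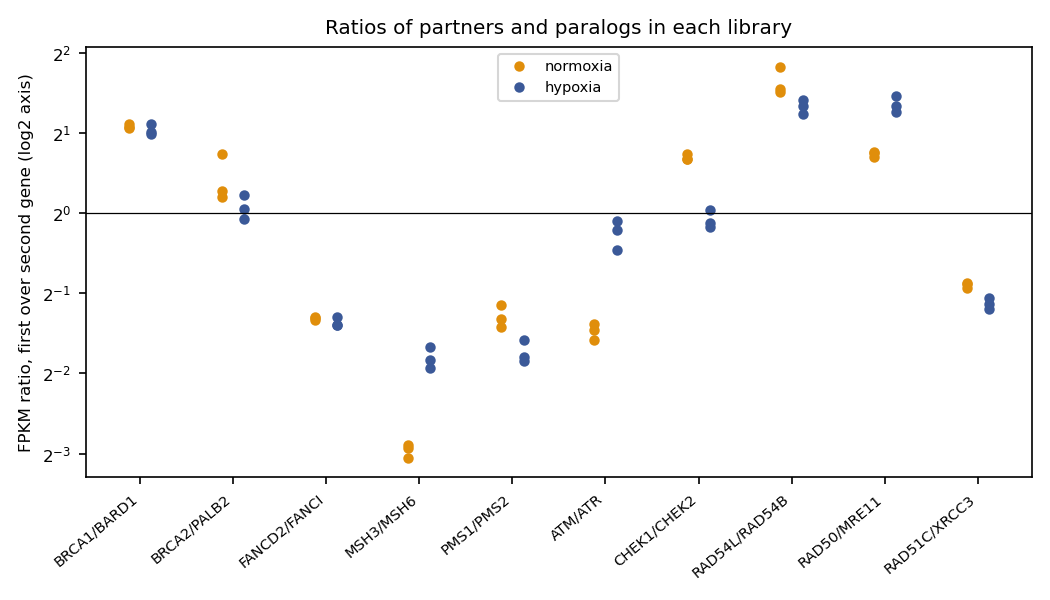
FPKM ratio of the first to the second gene of each of the 10 pairs in each library (vertical axis on a log2 scale; 3 points per condition). ATM/ATR and MSH3/MSH6 lie higher under hypoxia, CHEK1/CHEK2 lies lower, and BRCA1/BARD1 and FANCD2/FANCI overlap.

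Compared per length, the most abundant of the 38 mRNAs in normoxia was FANCI at 38.6 ± 1.50 FPKM (SD, n = 3), followed by MSH6 at 32.0 ± 0.553 FPKM and FANCG at 21.4 ± 0.228 FPKM. None of these 3 overlapped the gene next in order in any library. NBN at 15.8 FPKM, FANCD2 at 15.5 FPKM and RAD51AP1 at 14.8 FPKM came next, and neighbours among these 3 overlapped. From XRCC3 at 10.9 FPKM to RAD54L at 8.54 FPKM, 9 genes followed each other with overlapping ranges, among them BRCA1 at 10.1 FPKM, ATR at 9.37 FPKM and CHEK1 at 9.16 FPKM. BRCA2 was at 3.85 ± 0.268 FPKM and ATM at 3.38 ± 0.105 FPKM. The lowest were FANCB at 0.957 ± 0.122 FPKM and RAD51B at 0.801 ± 0.202 FPKM, whose ranges overlapped. Orders and FPKM ratios between genes rest on the gene lengths behind the deposited FPKM. These were 7874 bases for FANCB and 9508 for RAD51B, which averaged 7.67 and 7.72 CPM in normoxia.

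Under hypoxia FANCI and MSH6 still led, at 21.0 ± 1.13 and 16.6 ± 1.21 FPKM, and RAD50 moved from rank 8 to rank 3 at 13.4 FPKM, level with FANCG at 13.4 FPKM. FANCL went from rank 19 to 7, MSH3 from 25 to 14 and ATM from 28 to 18, while most of the other genes fell. RBBP8 went from rank 14 at 8.76 FPKM to rank 26 at 2.84 FPKM, and CHEK1 from rank 12 to 20. ATM, at 4.41 ± 0.380 FPKM, then stood beside CHEK2 at 4.42 ± 0.352 FPKM.

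**Figure D4:**
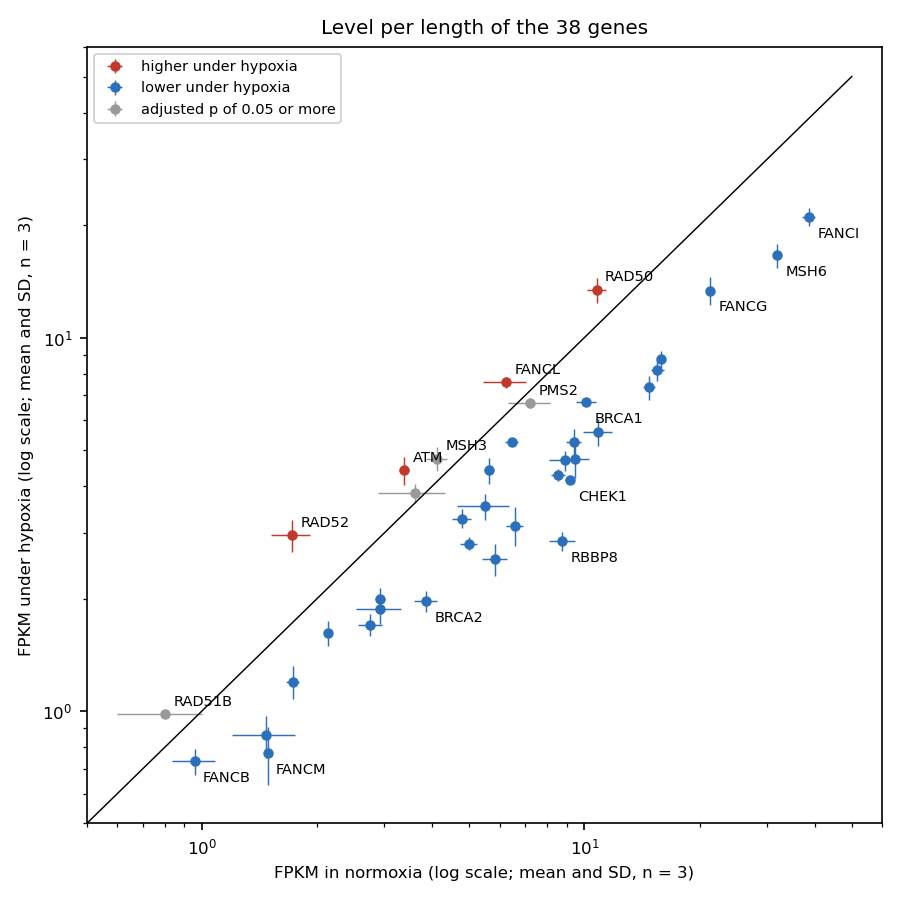
Level per length of the 38 genes in normoxia (horizontal axis) and under hypoxia (vertical axis), in FPKM on log scales; points are means and bars SDs of 3 libraries, and the line marks equal levels. RAD52, RAD50, FANCL and ATM, the 4 genes called higher, lie above the line and RBBP8 lies the farthest below it.

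Most other genes of the same pathways fell as well, beside 38.5% of all genes tested. Of 39 further recombination and crossover genes, 27 fell, 5 rose and 7 did not pass, with a median log2-fold change of -0.48. RFWD3, a ligase that clears proteins from resected DNA, fell by 1.46, TONSL, which guards new chromatin at forks, fell by 1.43, and ABRAXAS1, the scaffold of a BRCA1 complex that restrains resection, rose by 1.36. The other 4 that rose, named after their values were seen, were BABAM2 (0.47), also of that BRCA1 complex, ZSWIM7 (0.70), EME2 (0.79) and RECQL5 (0.38), a helicase that takes the recombinase off DNA.

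Of 12 further Fanconi genes, 7 fell, 2 rose and 3 did not pass, with a median of -0.48. USP1, which removes ubiquitin from FANCD2 and FANCI, fell by 1.50, and UBE2T, the conjugating enzyme that works with FANCL, fell by 1.32. CENPX, a histone-fold partner of FANCM, fell by 0.90. WDR48, the cofactor of USP1, and ERCC1, part of an unhooking nuclease, were the 2 that rose, at 0.51 and 0.24, and were named after their values were seen.

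Of 14 further mismatch repair genes tested from a list of 16, 12 fell and 2 rose, with a median of -0.88. RFC3, a subunit of the clamp loader, fell by 1.60, and PCNA, the clamp, fell by 1.34 from 477 ± 34.6 to 188 ± 21.9 CPM (SD, n = 3 each). POLD4, the smallest subunit of DNA polymerase delta, rose by 2.05, from 13.5 ± 3.23 to 55.9 ± 0.523 CPM. MLH3, of a nuclease used mainly in meiosis, rose by 0.98 and was named after its value was seen. The 2 genes not tested were MSH4 and MSH5, of meiosis.

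Of 21 further checkpoint genes tested from a list of 22, 18 fell, 2 rose and RAD17 alone did not pass, with a median of -0.76. CDC25A, the phosphatase that CHEK1 marks for destruction, fell by 2.64, TIPIN, of the fork protection complex, fell by 1.99, and H2AX, the histone that ATM and ATR phosphorylate at breaks, fell by 1.94. TP53BP1, which shields ends from resection, and ETAA1, an activator of ATR, rose by 0.30 and 0.29 and were named after their values were seen.

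Most tested genes of 3 other repair pathways also fell, beside 38.5% of all genes tested. In end joining 6 of 10 genes fell, with a median of -0.40, XRCC5 of the Ku ring at -0.84 and LIG4, the ligase, at -0.66, while 2 rose, the polymerase genes POLL (0.81) and POLM (0.65, named after its value was seen). In base excision repair 12 of 20 fell, with a median of -0.48, TDG at -1.80 and FEN1 at -1.51, and 4 rose, NEIL1 at 2.05 and, named after their values were seen, APLF (1.22), MPG (0.48) and MUTYH (0.45). In nucleotide excision repair 11 of 18 fell, with a median of -0.43 and ERCC3, a helicase of TFIIH, at -0.78. CETN2 and UVSSA rose, by 0.53 and 0.61, and were named after their values were seen. Whether the 38 genes differ from these lists was not tested.

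Most genes of the regulators known to act on such promoters fell too, beside 38.5% of all genes tested. Their part in the levels of the 38 genes was not tested. Of 20 genes of the E2F family, the DREAM complex and MuvB, 17 fell, with a median of -0.99. E2F1, an activator of S phase genes, was at 22.3 ± 2.69 CPM under hypoxia and 64.6 ± 2.65 CPM in normoxia (SD, n = 3 each), a log2-fold change of -1.54 (adjusted p = 1.25e-11 by edgeR). E2F2 fell by 1.47, E2F4, the E2F of the repressive DREAM complex, fell by 0.98, and FOXM1 and MYBL2, which act later in the cycle, fell by 1.30 and 1.29. RBL2, the pocket protein p130 of DREAM in resting cells, rose from 45.3 ± 3.55 to 79.5 ± 1.69 CPM, a log2-fold change of 0.81 (adjusted p = 2.51e-09 by edgeR), whereas RBL1, its paralog p107, fell by 1.07. TFDP2, an E2F partner, rose by 0.35, and LIN37 did not pass, at 0.36 (adjusted p = 0.0666 by edgeR).

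Nearly all markers of cycling cells were also lower under hypoxia, beside 38.5% of all genes tested. Of 18 S phase markers 17 fell, with a median of -1.19, and their summed level was 2006, 1734 and 1929 CPM under hypoxia and 4270, 4401 and 3997 CPM in normoxia. UHRF1, RRM2 and CDC45 were the largest of these falls, at -1.66, -1.53 and -1.44, and CDT1 alone did not pass. All 18 G2 and M phase markers fell, with a median of -1.22, and summed to 2292, 2135 and 2161 CPM against 4953, 5144 and 5038 CPM, with PLK1 at -1.95, AURKA at -1.74 and CDC20 at -1.69. The share of cells in each phase was not measured by these libraries, and the part of the markers' change in the levels of the 38 genes was not tested.

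**Figure D5:**
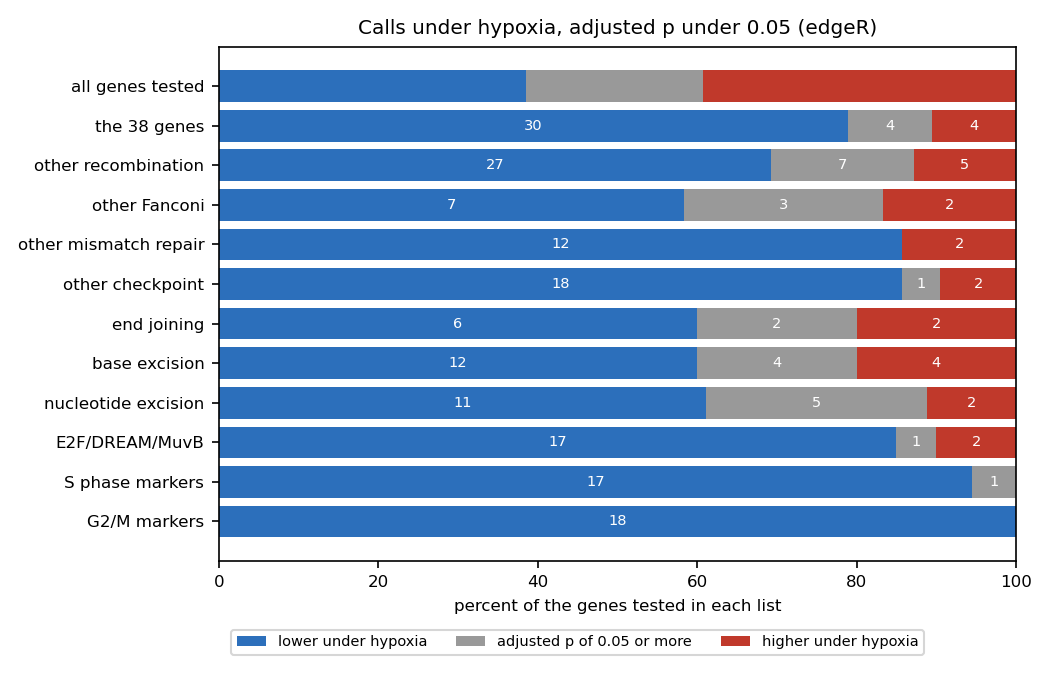
Percent of the genes tested in each list (horizontal axis) that were lower, higher or did not pass an adjusted p of 0.05 by edgeR under hypoxia; the numbers in the bars are genes. The 38 genes show 30 lower and 4 higher, and the S phase and G2/M markers show none higher.

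Several of these genes share DNA with a neighbour. In GENCODE v29, 6 of the 38 shared at least 10% of their exon bases with a gene of the opposite strand in the table. Without knowledge of strand in the counting, the reads over the bases that such a pair shares cannot be told apart. XRCC3 shared 76.7% of its exon bases with KLC1, a kinesin light chain gene, which averaged 3604 counts against 732 for XRCC3 and fell by 0.40. The other 5 were RAD54L with LRRC41 (25.1%), FANCA with ZNF276 (23.6%), FANCL with VRK2 (18.7%), MSH6 with FBXO11 (16.2%) and FANCF with GAS2 (11.3%). GAS2 averaged only 1.17 counts against 403 for FANCF and was not tested. VRK2 fell by 0.56 while FANCL was higher. RAD50 and RAD54B shared 79.7% and 59.1% with same-strand annotated genes that have no row of their own in the table.

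A start site within 1000 bases of a divergent neighbour's, or overlapping it by at most 500 bases, was found for 13 of the 38 genes with a tested neighbour. Of all single genes tested 38.5% fell and 39.2% rose, and the shares for divergent pairs in general were not measured. Both genes fell in 4 of the 13 pairs, which were PALB2 with DCTN5, RAD51AP1 with C12orf4, XRCC3 with ZFYVE21 and PMS1 with ORMDL1. In 4 pairs the genes were called in opposite directions. BRCA1 fell while NBR1, an autophagy receptor gene that starts 236 bases away, rose by 0.93 (SE 0.060, adjusted p = 2.31e-10 by edgeR). RAD52 rose while ERC1 fell by 0.29, FANCB fell while MOSPD2 rose by 0.68, and ATM rose while NPAT, a histone gene activator, fell by 0.48. In the last 5 pairs only 1 gene passed the test, among them PMS2, whose neighbour AIMP2 fell by 1.84.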

How the data were processed

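RNA-seq of cells labelled SCC25 under hypoxia or normoxia was analysed, with conditions, replicate numbers and exposure taken from the labels. The study's legend for the pathways enriched under hypoxia names the line SCC9. The authors deposited counts, as whole reads per gene without normalization, and FPKM for the same genes. Counts, gene length and library total gave back the deposited FPKM of 21775 of 21776 genes, all 38 included, within a relative tolerance of 1e-05. Libraries were made with a SMARTer kit from total RNA. Per the labels, the submitters' processing notes name the mouse builds GRCm38 and mm10, although the table holds human genes, so the build of the counts is uncertain. The aligner, counting tool, annotation and strand setting are not given in the sources used here.

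Differential expression was tested on the counts with edgeR 4.0.16 under R 4.3.3 (glmQLFit and glmQLFTest, TMM, filterByExpr with a minimum count of 10, condition as the only term), with Benjamini-Hochberg adjustment over 14255 genes at 0.05. The test was first tried on simulated data. Standard errors were obtained by dividing the absolute log2-fold change by the root of its F statistic. Replicates differed by more than sampling noise (chi-square per gene 5.11 to 11.5), so each library counted as 1 replicate. Totals of 29637189 to 37278703 reads put every one of the 38 genes above the floor of 3 counts. Standard errors tended to be larger for genes with fewer reads, but not in strict order. RAD51B, at 0.15, exceeded FANCB, at 0.14, and RAD50, at 0.062, exceeded BRCA1, at 0.058, although FANCB and BRCA1 had fewer reads.

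Alternatives were DESeq2 size factors in edgeR, DESeq2 1.42.0, no filter, at least 10 counts in every library, a replicate block, each library left out, an added fold threshold, and limma 3.58.1 on log2(FPKM + 1) or log2(FPKM + 0.1) for genes averaging 1 FPKM or more, and on log2(FPKM + 1) without that filter. The 38 genes, the lists and the pairs were chosen with earlier results of these data known. Values in every library are given for BRCA1, BRCA2, the 4 kinases and the genes with the largest and the smallest absolute log2-fold change of each role, and for FANCL, chosen after its values were seen. From each other list at most 3 genes with the largest changes are named, beside those said to be chosen after their values were seen and 9 of the 20 genes of the E2F list, any of which could be named. The cell type markers printed, RAD17 and CDT1 were also chosen after their values were seen. Promoters come from RefSeq (GRCh38.p14) and overlaps and neighbours from GENCODE v29, for which 35 and 38 of the genes matched.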

Additional observations from a re-analysis of the deposited data

How the results depend on the processing

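Across the 11 count-based settings other than the fold threshold, 33 to 35 of the 38 genes were called, beside 73.3% to 78.7% of all genes tested, or 54.7% without a filter. In limma, 34 of the 36 genes averaging 1 FPKM or more were called, beside 80.9% and 80.6% of all such genes for the pseudocounts of 1 and 0.1 (FANCB and RAD51B were below that mean), and 33 of 38 without that filter, beside 52.3%. All 30 genes that fell kept their direction and call in all 11 count-based settings other than the fold threshold. With an added absolute log2-fold change over 1, 9 of the 38 genes (23.7%) and 4338 of all genes (30.4%) were called. The number of all genes called was 9967 of 12665 where each library had to hold 10 counts or more and 11920 of 21776 without a filter, and ran from 10669 to 11390 when 1 library was left out. With the stricter filter the 9 genes past -1 became 4 (9.25% of the genes then tested), and without a filter 13 (7.88% of all genes). Leaving out 1 library gave 8 to 12, beside 10% to 11.4% of all genes tested. In limma 4 were past -1 on log2(FPKM + 0.1) (10.2% of all genes tested). On log2(FPKM + 1) only RBBP8 was, with the filter (7.47%) or without it (3.78%). The count past -1 was added after the data had been seen. The median over the 38 ran from -0.65 to -0.78. The estimate for FANCF changed sign to -0.0051 without a filter, and with 1 library left out it ran from -0.084 (no normoxia replicate 2) to 0.18, negative also when hypoxia replicate 3 (-0.015) or normoxia replicate 3 (-0.0097) was left out, with no call in any setting. FANCB lost its call in limma without a filter (adjusted p = 0.0653) and was not tested in limma with it. With FPKM + 1, the log2 differences of PMS1/PMS2, ATM/ATR and RAD51C/XRCC3 were -0.30, 1.03 and -0.10. The causes of these shifts were not tested. At least 10 counts in every library raised the log2-fold changes of shared genes by a median of 0.08. With the replicate number as a block, 34 of the 38 genes and 10875 of all genes were called. The samples share only a number: the deviations of same-numbered libraries correlated at 0.02, -0.07 and 0.00. Counting depth limits FANCB, RAD51B and FANCM most, at 160 to 167 reads in their lowest libraries.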
